A study of Mus musculus with 384 samples.

Results

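A set of 10 genes, of 49585 in the count table, was followed because they encode the receptors of the hormone-sensing cells of the mammary epithelium, act with them or mark those cells. The 10 genes, taken by name, are Esr1, Pgr and Prlr (hormone receptors), Foxa1 and Cited1 (nuclear partners of the estrogen receptor), Tnfsf11 and Wnt4 (secreted signals), and Tph1, Fxyd2 and Ly6a (other genes of hormone-sensing luminal cells). They were read in single mouse mammary epithelial cells by the full-length Smart-seq2 method, in 5 sorted groups on 1 plate. All groups carry the same strain label, K8rtta/TetO-DTA/K5CreER/Rosa-Tomato mice of mixed background, the wild-type (WT) groups too. In such mice rtTA under a keratin 8 promoter drives a diphtheria toxin gene in luminal cells when doxycycline is given. K5CreER, once activated by tamoxifen, can switch on Tomato in keratin 5 cells. The treatment labels do not mention tamoxifen. The WT groups were 44 basal and 43 luminal cells. The ablated groups were 71 basal, 85 hybrid and 76 luminal cells, from glands taken 1 week after 0.2 mg doxycycline was injected into the ducts. For WT glands the labels record no injection and no doxycycline, and no age or animal is given for any group. The effects of ablation, of the injection, of the drug and of single animals cannot be told apart. Each group was treated as 1 sample, so no test between groups was made and no p-value is given.

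Estrogen and progesterone act on the mammary gland through receptors held by a minority of luminal cells. These hormone-sensing cells pass the signal on by secreted factors, among them RANKL (encoded by Tnfsf11), WNT4 and amphiregulin, to neighbouring luminal and basal cells. FOXA1 opens chromatin for the estrogen receptor, and the prolactin receptor signals through STAT5. Most other luminal cells belong to an alveolar or secretory lineage marked by the transcription factor ELF5 and the caseins.

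Kept cells held 118310 to 3835005 reads in genes, and the group medians lay between 677373 and 1372883 reads. Levels are reads of all kept cells of a group added up and scaled by the group's total to CPM, the usual unit for counts corrected for library size, and intervals on them are exact Poisson intervals. A cell detected a gene when at least 5 reads remained after thinning the cell to 100000 reads, and shares of cells carry Clopper-Pearson intervals. All intervals are at 95% and cover counting error or the drawing of cells only, since the reads carry no molecular identifiers and the animals are unknown. The sorted labels were set against lineage markers. The 6 luminal keratin and junction genes summed to 26467 CPM in WT luminal and 1571 CPM in WT basal cells, and 10 basal genes summed to 168 and 21157 CPM. In ablated luminal cells the 10 basal genes summed to 6423 CPM, and in ablated hybrid cells both lists were high, at 13707 and 17867 CPM. Adipocyte markers were at 0 in every group, endothelial and immune markers summed to at most 7.30 and 32.6 CPM, and pericyte markers to 21.97 to 55.5 CPM. Fibroblast markers reached 148 CPM in ablated basal cells, with 3.74 to 76.6 CPM in the other groups. Markers of the alveolar lineage, 11 genes, summed to 37587 CPM in WT luminal but 3408 CPM in ablated luminal cells, with 11560 in ablated hybrid, 6470 in WT basal and 3268 CPM in ablated basal cells. The part of these marker differences in the results was not tested.

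Esr1 (ENSMUSG00000019768, chr10:4611593-5005614, + strand, GRCm38) encodes the estrogen receptor alpha. In the single cells it was about as high in basal as in luminal cells. The level was 86.9 CPM in WT basal cells (interval 84.3 to 89.7), 85.3 in WT luminal, 66.7 in ablated basal, 68.9 in ablated hybrid and 95.2 in ablated luminal cells. Every group had cells with no read of Esr1, and the median cell held between 1.132 and 8.48 CPM. The highest cell of each group held between 735 and 2096 CPM. Esr1 was thus carried by a minority of cells in all groups. It was detected in 9 of 44 WT basal cells (20.5%, interval 9.80 to 35.3%), 8 of 43 WT luminal cells (18.6%), 21 of 71 ablated basal cells (29.6%), 25 of 85 ablated hybrid cells (29.4%) and 22 of 76 ablated luminal cells (28.9%). The 5 intervals overlap. Among cells that detected it, the median was 320 CPM in WT basal and 302 CPM in WT luminal cells, and 121 to 148 CPM in the ablated groups. In mean reads per well, basal cells lay above the wells without a cell. A WT basal cell held 91.2 reads of Esr1 on average and an ablated basal cell 55.4, against 1.20 in the negative control wells. Those wells held only 7930 to 13572 reads in all, so these read counts are not scaled by depth. The means were set by high cells: among cells with a read of Esr1, the median was 2 reads in WT basal and 33 in ablated basal cells. The libraries of many cells were less even, at 183 CPM for WT basal, 71.6 for WT luminal, 66.8 for ablated basal, 9.29 for ablated hybrid and 71.5 CPM for ablated luminal cells.

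The annotated start sites of the 10 genes were looked up in RefSeq promoters of build GRCm38.p6, which run from 250 bases before to 50 bases after the start. Fxyd2 and Ly6a had no entry, and 8 of the 10 genes matched, with 14 start sites between them. The promoters of 4 genes are shown because their genes part in these data: Esr1 was detected in basal and luminal cells, whereas Foxa1, Cited1 and Prlr were detected in at most 1 cell of each basal group. Capitals mark the estrogen response core GGTCA and the FOXA motif TGTTTAC, on either strand. Each start site shown carries a marked motif, but not every start site of these genes does. Neither motif was found at start 2 of Esr1, starts 1 and 3 of Prlr or start 2 of Cited1, which are not shown. Start 3 of Cited1, also not shown, carries GGTCA. The first is Esr1 at chr10:4611739-4612038 on the + strand, the second Foxa1 at chr12:57546062-57546361 on the - strand, the third the second annotated start of Prlr at chr15:10223656-10223955 on the + strand, and the fourth the first start of Cited1 at chrX:102252132-102252431 on the - strand.
Esr1: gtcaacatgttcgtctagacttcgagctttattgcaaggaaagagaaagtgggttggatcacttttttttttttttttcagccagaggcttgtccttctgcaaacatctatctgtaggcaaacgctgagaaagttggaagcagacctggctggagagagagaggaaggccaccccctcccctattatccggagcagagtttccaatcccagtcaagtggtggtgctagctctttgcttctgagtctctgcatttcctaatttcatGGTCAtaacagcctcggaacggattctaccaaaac
Foxa1: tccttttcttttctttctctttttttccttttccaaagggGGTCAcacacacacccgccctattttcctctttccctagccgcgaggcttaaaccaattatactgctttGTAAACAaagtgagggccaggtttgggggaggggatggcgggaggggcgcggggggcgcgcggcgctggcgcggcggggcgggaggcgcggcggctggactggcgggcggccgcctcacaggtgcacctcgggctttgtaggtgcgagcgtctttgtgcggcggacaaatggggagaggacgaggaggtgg
Prlr: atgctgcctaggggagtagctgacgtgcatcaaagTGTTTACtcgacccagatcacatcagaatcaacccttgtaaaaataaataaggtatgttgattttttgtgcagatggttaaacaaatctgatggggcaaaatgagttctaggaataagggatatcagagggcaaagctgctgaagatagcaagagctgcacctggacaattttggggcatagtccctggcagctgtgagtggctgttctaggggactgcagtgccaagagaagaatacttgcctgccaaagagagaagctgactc
Cited1: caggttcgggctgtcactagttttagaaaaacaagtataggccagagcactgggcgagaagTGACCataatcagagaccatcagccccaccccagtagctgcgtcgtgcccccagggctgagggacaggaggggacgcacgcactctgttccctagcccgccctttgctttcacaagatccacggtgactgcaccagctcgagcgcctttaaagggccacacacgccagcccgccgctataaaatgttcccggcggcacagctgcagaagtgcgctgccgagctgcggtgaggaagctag

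GGTCA was found in 6 of the 14 promoters, of Esr1, Foxa1, Cited1 and Tph1, and in 40.5% of all 32851 promoters searched. Promoters of a chromosome that holds none of the genes of the set were left out of the search, here and for the shares below. TGTTTAC was found in 2 of the 14, of Foxa1 and Prlr, against 3.65% of all promoters. In Foxa1 it begins 141 bases before the start site, on the other strand, and in Prlr 215 bases before. The STAT motif TTCNNNGAA was found in 2 of the 14, in the second start of Esr1 and the second start of Prlr, against 8.30% of all promoters. The letters AGATAA, searched for the luminal factor GATA3, were found in 0 of the 14 and in 11.2% of all. No searched motif overlapped another in the sequences shown. These are matches of letters in a short window, and no binding was measured.

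Pgr (ENSMUSG00000031870, chr9:8899833-8968611, + strand) encodes the progesterone receptor, a target of estrogen signalling. It was highest in ablated luminal cells, at 97.1 CPM, against 39.4 CPM in WT luminal cells. WT basal cells held 10.3 CPM, ablated basal cells 41.5 CPM and ablated hybrid cells 9.34 CPM. The basal levels rested on very few cells. A single WT basal cell carried 97.7% of the reads, and without it the level was 0.248 CPM. A single ablated basal cell carried 52.6%, and without it the level was 19.96 CPM. Pgr was detected in 1 of 44 WT basal, 6 of 43 WT luminal, 4 of 71 ablated basal, 6 of 85 ablated hybrid and 22 of 76 ablated luminal cells. The ablated luminal share of 28.9% (interval 19.1 to 40.5%) and the WT luminal share of 13.95% (interval 5.30 to 27.9%) have overlapping intervals. Within detecting cells the median was 192 CPM in ablated luminal and 180 CPM in WT luminal cells, so the higher group level went with more detecting cells. The libraries of many cells gave 42.1 CPM for ablated luminal and 56.7 CPM for WT luminal cells, the opposite order. The 4 ablated basal cells with Pgr reached 1414 CPM, and all 4 detected the basal genes Krt14 and Acta2 and none detected Prlr or Foxa1.

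Prlr (ENSMUSG00000005268, chr15:10177238-10349180, + strand) encodes the prolactin receptor. It was lower in the ablated luminal and hybrid groups than in WT luminal cells, and near background in basal cells. WT luminal cells held 1789 CPM (interval 1780 to 1799), ablated luminal cells 675 CPM and ablated hybrid cells 340 CPM. Ablated basal cells held 3.42 CPM and WT basal cells 49.4 CPM, of which 1 cell carried 88.3%. Without that cell WT basal cells held 5.88 CPM. An ablated basal cell held 2.85 reads of Prlr on average, below the 9.80 of the negative control wells, which ranged from 8 to 13. Shares of cells moved less than the level. Prlr was detected in 22 of 43 WT luminal cells (51.2%, interval 35.5 to 66.7%), 34 of 76 ablated luminal cells (44.7%, interval 33.3 to 56.6%) and 33 of 85 ablated hybrid cells (38.8%, interval 28.4 to 50.01%). In detecting cells the median was 2372 CPM in WT luminal, 761 CPM in ablated luminal and 681 CPM in ablated hybrid cells. The highest cells held 14599, 5353 and 6813 CPM, so the ranges of cells overlap. The libraries of many cells kept the order, with 3202, 1233 and 393 CPM. Prlr overlaps the gene Gm21973 on the same strand, with which it shares transcript sequence, so reads of both cannot be fully told apart.

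**Figure D1:**
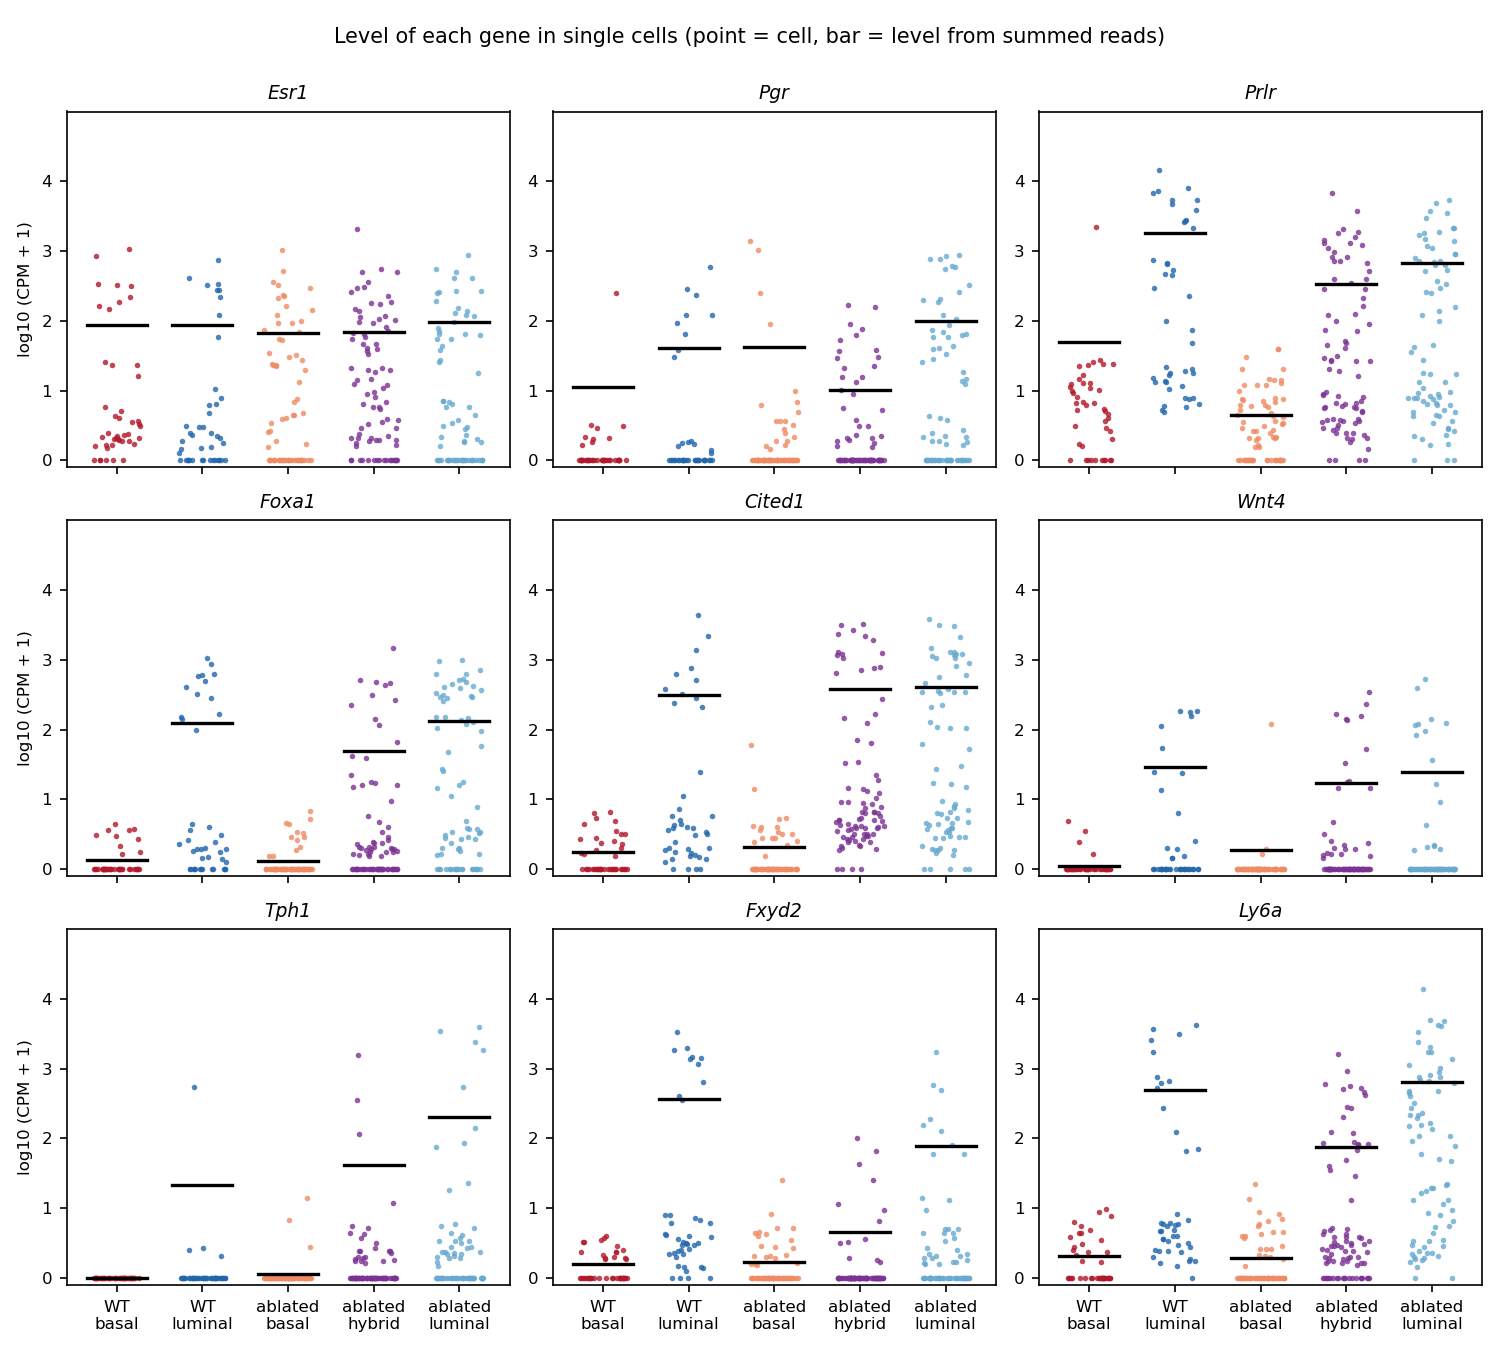
Level of 9 genes in every kept cell, as log10 (CPM + 1) on the vertical axis, in the 5 groups along the horizontal axis (points are cells, black bars the level from summed reads). Esr1 has high cells in all 5 groups, whereas Foxa1 has none in the 2 basal groups, and the black bars of Pgr and Prlr in WT basal cells are set by 1 high cell each.

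Foxa1 (ENSMUSG00000035451, chr12:57540628-57546916, - strand) encodes the pioneer factor of the estrogen receptor. Its levels in both luminal groups were close, with 123 CPM in WT luminal (interval 121 to 126) and 133 CPM in ablated luminal cells (interval 131 to 135), and 48.5 CPM in ablated hybrid cells. Basal cells held 0.347 CPM in the WT and 0.322 CPM in the ablated group. These basal values correspond to 0.364 and 0.268 reads per cell, below the 1.80 reads of a negative control well. Foxa1 was detected in 13 of 43 WT luminal, 29 of 76 ablated luminal and 12 of 85 ablated hybrid cells. No basal cell detected it, 0 of 44 in the WT group (Clopper-Pearson upper bound 8.04%) and 0 of 71 in the ablated group (upper bound 5.06%). Taking 3 cells as the most that a count of 0 allows, the limits are 6.82 and 4.23%. The highest cells of the luminal and hybrid groups held 998 to 1490 CPM, and the highest basal cell 5.91 CPM. In the libraries of many cells the ablated hybrid value was lower, at 5.66 CPM, against 331 and 218 CPM for WT and ablated luminal cells.

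Cited1 (ENSMUSG00000051159, chrX:102247381-102252181, - strand) encodes a co-activator of the estrogen receptor. In contrast to Foxa1 it was about as high in hybrid as in luminal cells. Ablated hybrid cells held 383 CPM, ablated luminal cells 414 CPM and WT luminal cells 311 CPM, and the basal groups 0.758 and 1.12 CPM. The median cell held 2.93 to 8.02 CPM in the luminal and hybrid groups and the highest cell 3275 to 4425 CPM. Cited1 was detected in 20 of 85 ablated hybrid cells (23.5%, interval 15.0 to 33.97%), 32 of 76 ablated luminal cells (42.1%, interval 30.9 to 53.98%) and 11 of 43 WT luminal cells (25.6%, interval 13.5 to 41.2%). Detecting hybrid cells had a median of 1106 CPM, against 587 CPM in ablated luminal and 510 CPM in WT luminal cells. The libraries of many cells gave 305, 1208 and 839 CPM for the hybrid, ablated luminal and WT luminal cells, so the near equality of hybrid and luminal cells was not seen there.

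Tnfsf11 (ENSMUSG00000022015, chr14:78277445-78308043, - strand) encodes RANKL, the signal by which progesterone acts on neighbouring cells. It was close to absent at this depth. WT basal, WT luminal, ablated basal and ablated luminal cells held 0 reads, for which the upper interval bounds are 0.0799, 0.0519, 0.0625 and 0.0424 CPM. Ablated hybrid cells held 16 reads in 2 cells, or 0.167 CPM, and no cell passed the limit for detection. Tnfsf11 was the 1 gene of the 10 under the level of 5 CPM, averaged over groups, above which ratios were judged. Wnt4 (ENSMUSG00000036856, chr4:137277489-137299726, + strand), the other secreted signal, was low but luminal. It stood at 28.01 CPM in WT luminal, 24.1 in ablated luminal and 16.2 in hybrid cells after ablation, and at 0.130 and 0.865 CPM in WT and ablated basal cells. It was detected in 5 of 43, 8 of 76 and 7 of 85 cells of the luminal and hybrid groups, with the highest cells at 187, 531 and 348 CPM. In ablated basal cells 1 cell held 96.1% of its reads. Of the Wnt4 transcript words of 50 bases, 4.33% also occur in other transcripts.

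Tph1 (ENSMUSG00000040046, chr7:46644641-46672537, - strand) encodes the enzyme that starts serotonin synthesis outside the brain. It was highest in ablated luminal cells, at 202 CPM, and its level in other groups rested on single cells. WT luminal cells held 20.6 CPM, of which 1 cell gave 99.6%, and 0.0877 CPM without it. Ablated hybrid cells held 39.99 CPM, of which 1 cell gave 79.7%, and 8.27 CPM without it. Ablated luminal cells held 133 CPM without their highest cell of 3888 CPM. Tph1 was detected in 8 of 76 ablated luminal cells (10.5%, interval 4.66 to 19.7%), 1 of 43 WT luminal cells (2.33%, interval 0.0589 to 12.3%) and 3 of 85 ablated hybrid cells. The intervals overlap, and the difference in share was not tested. The libraries of many cells gave 73.5 CPM for ablated luminal and 0 CPM for WT luminal and ablated hybrid cells.

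Fxyd2 (ENSMUSG00000059412, chr9:45399669-45410278, + strand) encodes a regulatory subunit of the sodium pump. It was high in WT luminal cells, at 368 CPM, and lower in ablated luminal cells, at 76.7 CPM, of which 1 cell gave 53.3%. Without that cell ablated luminal cells held 36.7 CPM. Ablated hybrid cells held 3.64 CPM and the basal groups 0.563 and 0.695 CPM. Fxyd2 was detected in 10 of 43 WT luminal cells (23.3%, interval 11.8 to 38.6%), 8 of 76 ablated luminal cells (10.5%, interval 4.66 to 19.7%) and 3 of 85 ablated hybrid cells (3.53%, interval 0.734 to 9.97%). In detecting cells the median was 1403 CPM in WT luminal, 171 CPM in ablated luminal and 65.3 CPM in ablated hybrid cells. The lowest detecting WT luminal cell held 355 CPM, above the median of the detecting ablated luminal cells. The libraries of many cells did not show this difference, with 317 CPM for WT luminal and 314 CPM for ablated luminal cells, while the hybrid library stood at 4.85 CPM.

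Ly6a (ENSMUSG00000075602, chr15:74994877-74998031, - strand) encodes the surface antigen Sca-1, used to sort hormone-sensing luminal cells. Ablated luminal cells held 647 CPM, WT luminal cells 495 CPM and ablated hybrid cells 74.02 CPM, and the basal groups 1.08 and 0.966 CPM. It was the gene of the 10 detected in the largest share of ablated luminal cells, 41 of 76 (53.9%, interval 42.1 to 65.5%). WT luminal cells detected it in 12 of 43 (27.9%, interval 15.3 to 43.7%) and ablated hybrid cells in 18 of 85 (21.2%). The median ablated luminal cell held 67.9 CPM and the median WT luminal cell 3.89 CPM, while the medians of detecting cells were 482 and 716 CPM. A larger share of ablated luminal cells thus detected Ly6a, at levels no higher per detecting cell, but the intervals of both luminal shares overlap slightly. The libraries of many cells gave 1407 CPM for ablated luminal, 1008 for WT luminal and 40.8 CPM for ablated hybrid cells. Ly6a shares 246 of its 1297 transcript words of 50 bases with other genes, most of all Ly6c1, so a part of its reads may have been left uncounted or counted elsewhere.

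**Figure D2:**
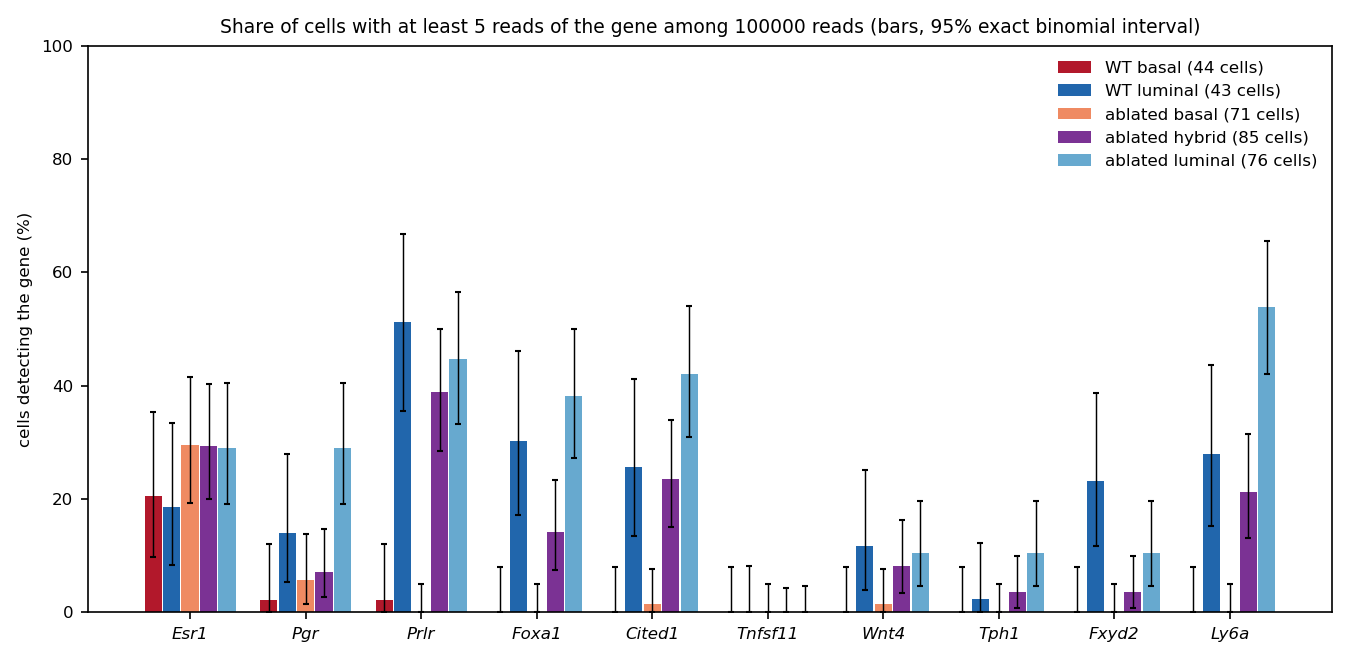
Share of cells that detected each of the 10 genes (vertical axis, %), by gene and group, with Clopper-Pearson 95% intervals as error bars. Esr1 stands between 18.6 and 29.6% in all 5 groups, and the basal groups lie between 0 and 5.63% for the other genes.

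Scaled by summed exon length, so that genes can be set beside each other, the order within a group was steep. In WT luminal cells Ly6a stood at 1140 length-scaled units (TPM), Cited1 at 492, Prlr at 323, Fxyd2 at 255 and Foxa1 at 103. Wnt4, Esr1, Pgr and Tph1 followed at 18.5, 17.3, 12.8 and 9.26. Tnfsf11 was at 0. On this scale Esr1 and Pgr lay well below Prlr, among the lower genes of the set. In ablated luminal cells Ly6a (1535) and Cited1 (675) again led, followed by Prlr (126), Foxa1 (114), Tph1 (93.7), Fxyd2 (54.8), Pgr (32.5), Esr1 (19.9) and Wnt4 (16.4), all on the same length-scaled measure. In ablated hybrid cells Cited1 led at 627, ahead of Ly6a at 176.

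In all, 6 comparisons of groups were made on log2 ratios after adding 10 CPM to both levels, which understates the ratio of low genes, and a gene was called at 2-fold or more. Calls were read against the 11106 genes whose mean over groups reached 5 CPM, which include 9 of the 10 genes. In simulated counts with real depths, 29 of 100 genes made 2-fold different and 98 of 100 made 4-fold different passed this rule, all in the right direction. The changed genes lay above a set level in WT basal cells, which of the 9 only Esr1 and Prlr reached. The simulated spread between cells did not place most reads of a gene in 1 cell, as was seen for some of the 9. These rates therefore need not hold for the 9 genes. In WT luminal over WT basal cells, 8 of the 9 genes were higher and 0 lower, where 22.3% of all genes were higher and 21.3% lower. The median log2 ratio of the 9 was 3.69, against 0.01 for all measured genes. The largest were Ly6a at 5.51, Fxyd2 at 5.16, Prlr at 4.92 and Cited1 at 4.90, and the exception was Esr1 at -0.02. In the libraries of many cells Esr1 stood at -1.24, higher in basal cells. Without the cell with most reads of the gene, Tph1 no longer passed, at 0.01. In ablated luminal over ablated basal cells, again 8 of the 9 were higher and 0 lower, with 19.3% of all genes higher and 13.2% lower. The median was 3.79 and that of all genes 0.16, and Esr1 was again the exception, at 0.46. Pgr, at 1.06, no longer passed with TMM scaling (0.88), with median-of-ratios scaling (0.85) or in the libraries of many cells (0.12).

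Between the same sorted cell types with and without ablation the genes divided. In ablated luminal over WT luminal cells Pgr (log2 ratio 1.12) and Tph1 (2.79) were higher and Prlr (-1.39) and Fxyd2 (-2.12) lower, or 2 and 2 of the 9. Among all genes 15.3% were higher and 6.61% lower. The median of the 9 was 0.14 and that of all genes 0.21, so the median of the 9 lay near that of all genes. Esr1 (0.14), Foxa1 (0.10), Cited1 (0.40), Wnt4 (-0.16) and Ly6a (0.38) stayed within 2-fold. In the libraries of many cells the ratio of Pgr was -0.36 and that of Fxyd2 -0.01, and after TMM scaling that of Pgr was 0.86, whereas Prlr (-1.37) and Tph1 (3.06) kept their side in those libraries. Between these luminal groups 8 of 10 measured alveolar markers were lower in the ablated cells and 8 of 10 basal markers higher, and their part in the ratios was not tested. In ablated basal over WT basal cells 1 gene was higher, Pgr at 1.34, and 1 lower, Prlr at -2.15, with 19.8% of all genes higher and 14.9% lower. Both rested on few cells: without the top cell in each group Prlr stood at -0.26 and Pgr at 1.55.

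Hybrid cells lay between basal and luminal cells for most of the genes. In ablated hybrid over ablated basal cells, 6 of the 9 were higher, with 16% of all genes higher, and 1 was lower, with 8.87% of all genes lower. The 6 were Cited1 (log2 ratio 5.14), Prlr (4.70), Ly6a (2.94), Foxa1 (2.50), Tph1 (2.30) and Wnt4 (1.27). The lower gene was Pgr, at -1.41, which stood at -0.76 without the top cell in each group, while Tph1 stood at 0.86 there. In the libraries of many cells Foxa1 (0.53), Tph1 (-0.06) and Pgr (-0.89) did not reach 2-fold, and Esr1 stood at -1.99. In ablated hybrid over ablated luminal cells 0 of the 9 were higher, where 6% of all genes were, and 5 were lower, where 4.19% of all genes were. These were Ly6a (-2.97), Fxyd2 (-2.67), Pgr (-2.47), Tph1 (-2.09) and Foxa1 (-1.29). Cited1 (-0.11), Wnt4 (-0.38), Esr1 (-0.42) and Prlr (-0.97) were within 2-fold, although Prlr stood at -1.03 without the top cell in each group and at -1.63 in the libraries of many cells, while in the latter Esr1 stood at -2.08 and Cited1 at -1.95. In those libraries 8 of the 9 genes were lower in hybrid cells, all but Wnt4 (-0.46), and the share of all genes was not counted there. Comparisons that use the same group share its cells and are not independent. In bulk sums such as these, fewer cells with a gene and less RNA per cell cannot be told apart, for which the counts of cells follow.

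**Figure D3:**
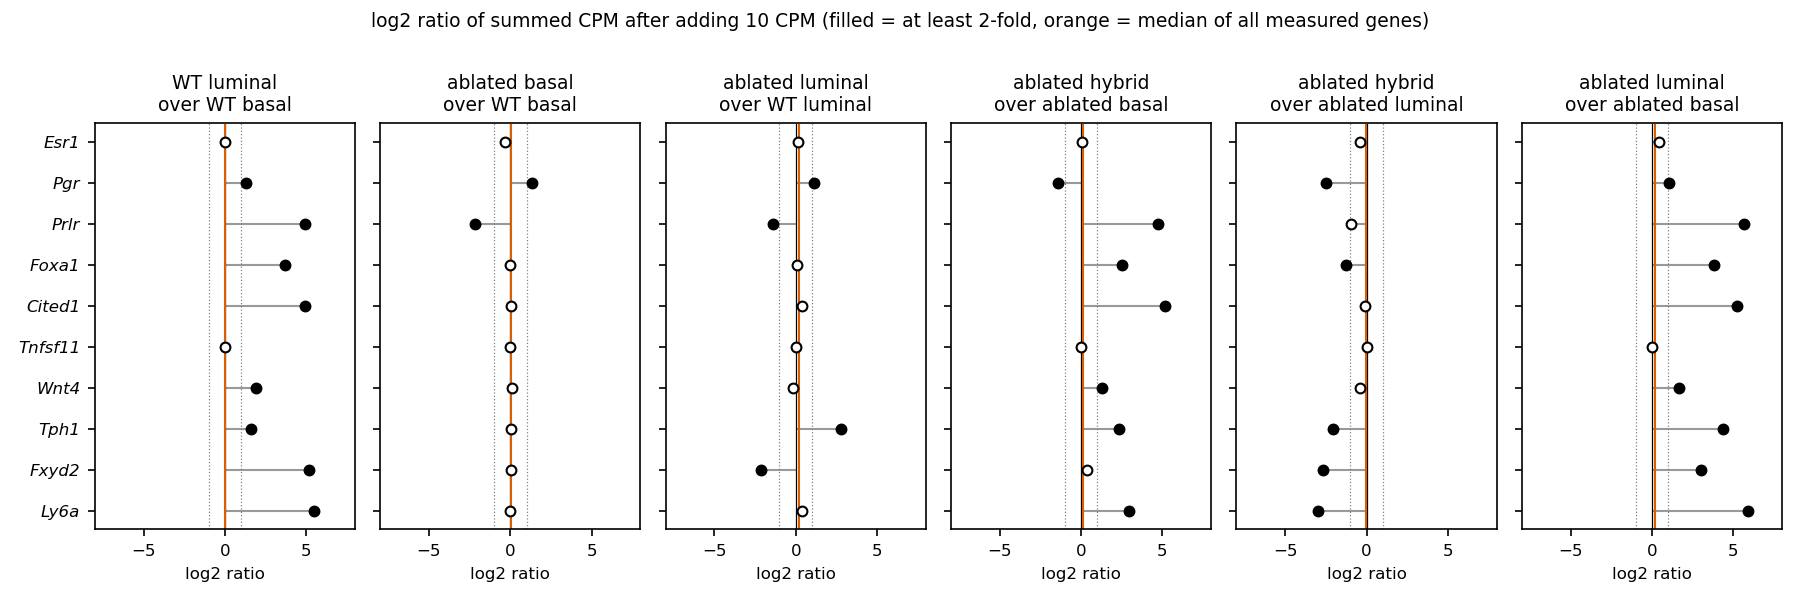
log2 ratio of summed CPM after adding 10 CPM (horizontal axis) for the 10 genes in each of the 6 comparisons. Filled points are at least 2-fold, dotted lines mark 2-fold, and the orange line is the median of all measured genes. The point of Esr1 is unfilled in every panel, within 2-fold, and the points of most other genes lie far right where a luminal or hybrid group is set over a basal one.

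Several of the 10 genes were detected together in a subset of luminal cells, and no cell detected more than 8. In WT luminal cells 29 of 43 cells detected 0 or 1 of them and 12 detected 5 or more, while 1 cell detected 2 and 1 cell detected 3. This is a gap with few cells in between. At least 3 genes were detected in 13 of 43 WT luminal cells (30.2%, interval 17.2 to 46.1%), 31 of 76 ablated luminal cells (40.8%, interval 29.7 to 52.7%), and 19 of 85 ablated hybrid cells (22.4%, interval 14.03 to 32.7%), while both basal groups had 0 such cells, of 44 and 71. In ablated luminal cells the gap was filled: 34 cells detected 0 or 1 genes, 20 detected 2 to 4 and 22 detected 5 or more. In ablated hybrid cells 12 detected 2 to 4 and 11 detected 5 or more, and no hybrid cell detected more than 6, against 8 in both luminal groups. Cells with at least 3 of the genes also showed more genes in all after thinning, with medians of 4143 against 2686.5 in WT luminal, 5405 against 4410 in ablated hybrid and 4722 against 4126 in ablated luminal cells. The part of this difference in the co-detection was not tested. Among cells with fewer than 3 of the genes, the ablated luminal median (4126) also lay above the WT luminal median (2686.5). The part of that difference between groups in the filled gap was not tested either.

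**Figure D4:**
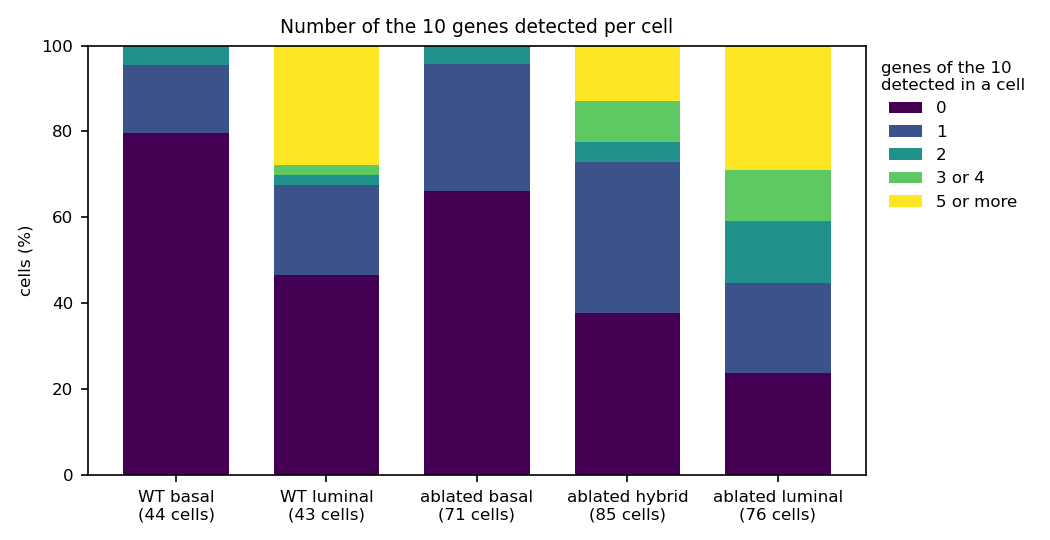
Share of cells (vertical axis, %) that detected 0, 1, 2, 3 or 4, or 5 or more of the 10 genes, by group. WT luminal cells fall into 29 cells with 0 or 1 and 12 cells with 5 or more, with 2 cells in between, while 20 ablated luminal cells lie in between.

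The pairs found in most cells all involved Prlr, Foxa1, Cited1 or Ly6a. These 4 were also the genes detected in most cells of both luminal groups, and the ranking of pairs does not allow for that. In WT luminal cells they were Prlr with Foxa1 (13 cells), Prlr with Ly6a (12) and Foxa1 with Ly6a (11). In ablated luminal cells they were Prlr with Cited1 (27), Prlr with Ly6a (25) and Foxa1 with Ly6a (24), and in ablated hybrid cells Prlr with Cited1 (19), Foxa1 with Cited1 (12) and Prlr with Foxa1 (12). Every Foxa1 cell of the WT luminal and ablated hybrid groups detected Prlr (13 of 13 and 12 of 12), and in the ablated luminal group 22 of 29 did. In hybrid cells Foxa1 was found beside Cited1 in 12 of 12 cells, against 9 of 13 in WT luminal cells. Fxyd2 cells of the WT luminal group detected Ly6a in 10 of 10. Cells with Wnt4 also detected Pgr in 4 of 5 WT luminal, 6 of 8 ablated luminal and 3 of 7 ablated hybrid cells. Tph1 was detected in few cells, so how it went with the rest can hardly be compared between groups. Its correlation over cells with the mean of the other genes was 0.08 in WT luminal (43 cells), where 1 cell detected it. It was 0.10 in ablated luminal cells (76 cells), where 8 detected it, and 0.42 in ablated hybrid cells (85 cells). In the hybrid group 3 cells detected Tph1, and 1 cell gave 79.7% of its reads. The other genes with reads had 0.63 to 0.85 and 0.41 to 0.79 in the luminal groups, and in hybrid cells Fxyd2 (0.43), Esr1 (0.45) and Ly6a (0.47) were close to Tph1. Of the 8 ablated luminal cells with Tph1, 7 detected Foxa1 and 7 Ly6a, where 29 and 41 of all 76 cells did. These correlations share the library and depth of each cell and are descriptions.

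Most Esr1 cells of the luminal groups detected other genes of the set. In the WT luminal group 7 of 8 Esr1 cells detected Foxa1, 8 of 8 Prlr and 7 of 8 Cited1. In the ablated luminal group these were 15, 19 and 19 of 22. In basal cells Foxa1 was not detected in any cell, with or without Esr1. Of the 9 WT basal Esr1 cells 1 detected Prlr and 1 Pgr, and of the 21 ablated basal Esr1 cells 2 detected Pgr and 1 Cited1. Krt14 was detected in 8 of 9 WT basal cells with Esr1 and 30 of 35 without, and Acta2 in 9 of 9 and 35 of 35. In ablated basal cells Krt14 was detected in 21 of 21 with and 48 of 50 without Esr1, so basal genes were common in basal cells with and without Esr1. In hybrid cells Esr1 went with Foxa1 in 6 of 25 and with Prlr in 11 of 25 cells. Among hybrid cells without Esr1, Foxa1 was detected in 6 of 60 and Prlr in 22 of 60. Pgr went with Esr1 in 15 of 22 ablated luminal cells and in 3 of 6 WT luminal cells. Esr1 was detected in 7 of the 54 ablated luminal cells without Pgr.

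Cells with at least 3 of the genes stayed below the detection limit for Elf5, which encodes a factor of the alveolar lineage. Elf5 was detected in 0 of 13 such cells of the WT luminal group, 0 of 19 of the ablated hybrid and 0 of 31 of the ablated luminal group, with upper interval bounds of 24.7, 17.6 and 11.2%. Among the other cells of these groups it was detected in 10 of 30, 16 of 66 and 9 of 45. The most Elf5 reads in a thinned cell with at least 3 of the genes were 4, in a hybrid cell. Csn3, a casein, was less clear-cut, in 11 of 13 against 29 of 30 WT luminal cells, 7 of 19 against 46 of 66 hybrid and 4 of 31 against 19 of 45 ablated luminal cells. Csn3 had on average 114 reads in the negative control wells, so its low counts carry background.

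Basal transcripts differed in how often they were found in the hybrid cells with at least 3 of the genes. Krt14 and Acta2, a basal keratin and smooth muscle actin, were both detected in 19 of 19, with medians of 108 and 347 reads per 100000. In the hybrid cells with fewer genes the medians were 246 and 579.5 reads. Krt5, another basal keratin, was detected in 10 of 19 against 50 of 66 other hybrid cells, and Trp63, a basal transcription factor gene, in 3 of 19 against 27 of 66. WT luminal cells with at least 3 of the genes had medians of 0 reads of Krt14 and 1 of Acta2, and detected them in 1 of 13 each. In ablated luminal cells with at least 3 of the genes Krt14 was detected in 18 of 31, against 34 of 45 of the others. The medians were 6 and 82 reads of Krt14 per 100000. Acta2 was detected in 8 of 31 against 13 of 45, and Krt5 in 3 of 31 against 15 of 45. Krt18, a luminal keratin, had a median of 715 reads in the hybrid cells with at least 3 genes and 278 in the other hybrid cells. Whether wells held more than 1 cell was not tested. Leaving out the tenth of wells with most reads in each group, a step chosen after seeing the data, the hybrid share with at least 3 genes was 21.1%.

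**Figure D5:**
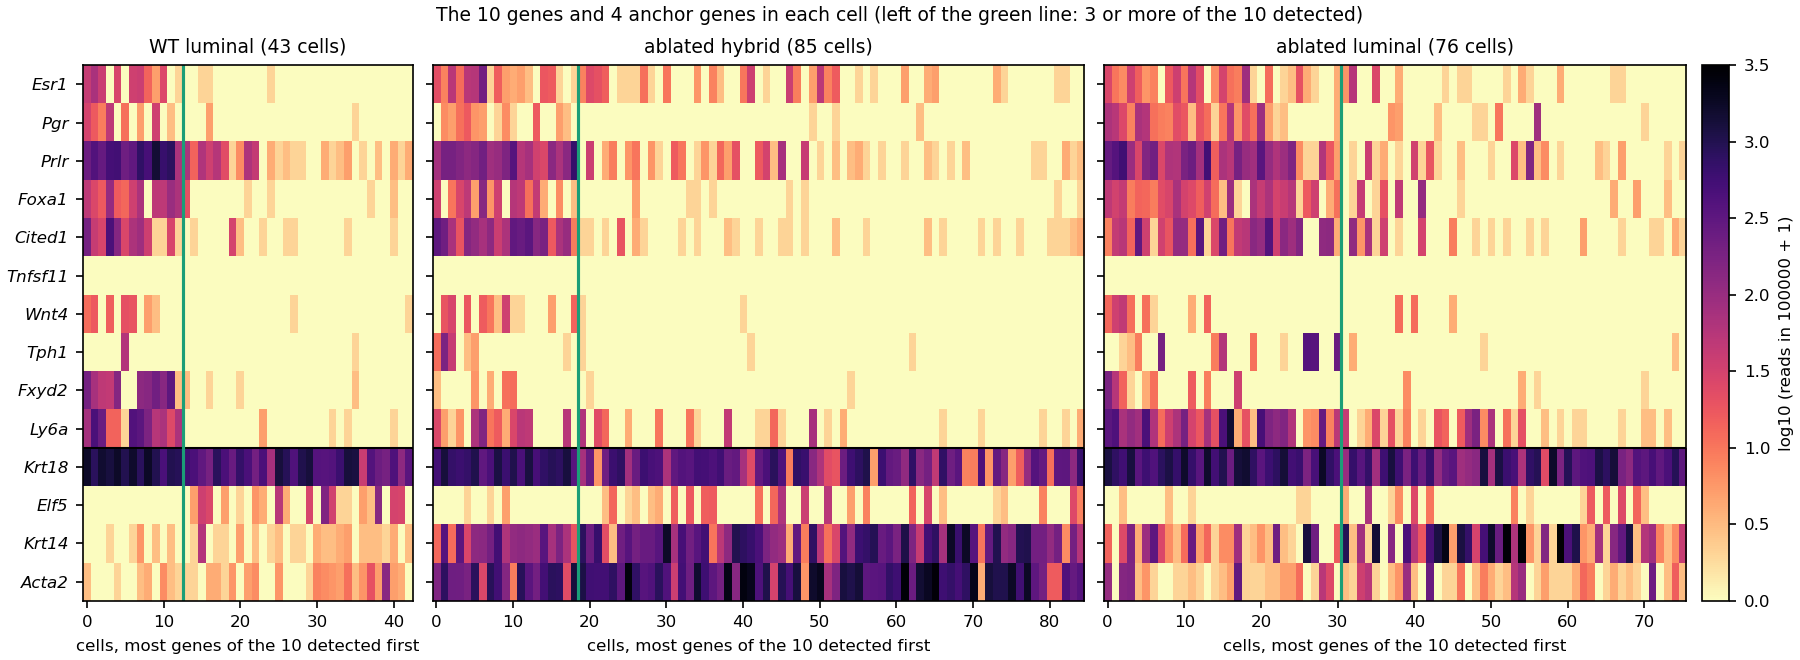
Reads in 100000 of the 10 genes and of Krt18, Elf5, Krt14 and Acta2 in each cell (colour, log10 of reads + 1), for WT luminal, ablated hybrid and ablated luminal cells, sorted by how many of the 10 genes they detected. Left of the green line lie the 13, 19 and 31 cells with at least 3 of the genes, in which Elf5 is empty or pale, and in the hybrid panel Krt14 and Acta2 are dark on both sides of the line.

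Other genes of hormone signalling were read from lists, whose counts stand against 22.3% of all genes higher and 21.3% lower in WT luminal over WT basal cells, and 15.3% higher and 6.61% lower in ablated over WT luminal cells. Of 13 other genes of hormone-sensing cells, all of which passed the level filter, 6 were higher in WT luminal than WT basal cells and 1 lower, with a median log2 ratio of 0.67 against 0.01 for all genes. Stc2, a secreted glycoprotein, stood at 5.24 and Areg, which encodes amphiregulin, at 4.23. In ablated luminal over WT luminal cells 3 of the 13 were higher and 0 lower, Areg at 2.22 and Myb, a transcription factor gene, at 2.14 among them. In ablated hybrid over ablated basal cells 6 of the 13 were higher and 1 lower, with 16% of all genes higher and 8.87% lower. In ablated hybrid over ablated luminal cells 1 was higher and 5 lower, with 6% of all genes higher and 4.19% lower. Areg held 181 CPM in WT luminal cells, 460 in the hybrid and 879 in the luminal group after ablation, where 31 of 76 cells detected it against 2 of 43 in the WT group. Of 12 receivers of RANKL and WNT4 signals, 11 were measured, and 3 were higher and 5 lower in WT luminal than WT basal cells. Lgr5, a receptor of R-spondins, stood at -4.73 there and Adamts18, a matrix protease, at -4.19. In ablated luminal over WT luminal cells 3 of the 11 were higher, Lgr5 at 3.06 and Rspo1, an R-spondin, at 1.93 among them, and 0 lower.

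The lists that follow are short, and their counts are read against the same shares of all genes, 22.3% higher and 21.3% lower in the first comparison and 15.3% and 6.61% in the second. The 2 higher and 3 lower of 13 receptor partners in the first comparison lie near those shares. Of 8 genes between prolactin and STAT5, 2 were higher and 1 lower in WT luminal than WT basal cells, Elf5 at 3.56 and Socs3, a feedback inhibitor, at -3.31 among them. In ablated over WT luminal cells 0 were higher and 1 lower, Elf5 at -1.88. Elf5 is also in the alveolar marker list, of which 8 of 10 measured genes were lower there. Cish, another feedback inhibitor, stood at -0.97. Of 13 partners of the estrogen and progesterone receptors, 2 were higher and 3 lower in WT luminal than WT basal cells. These included Ncoa1, a nuclear receptor co-activator, at -2.81 and Nrip1, a co-repressor, at -1.36. In ablated over WT luminal cells 2 were higher and 1 lower, with Nrip1 at 1.05 and Ep300, a histone acetyltransferase, at -1.46. Of 13 other hormone receptors 11 were measured. In WT luminal over basal cells 1 was higher and 4 lower, led by Oxtr, the oxytocin receptor of myoepithelial cells, at -5.77, and Rara, a retinoic acid receptor, at -2.22. In ablated over WT luminal cells 1 was higher and 1 lower, with Rara at 1.00 and Esrra, an estrogen-related receptor, at -1.01. Around Tph1, 2 of 8 serotonin genes were measured. Maoa, which degrades serotonin, stood at 2.56 and the receptor gene Htr1d at -2.05 in WT luminal over basal cells, and at -0.85 and 0.63 in ablated over WT luminal cells, where neither passed 2-fold. Around Fxyd2, 6 of 8 genes of the sodium pump and its FXYD regulators were measured, and 0 were higher and 3 lower in WT luminal over basal cells, with Atp1b3, a pump subunit, at -2.02 and Fxyd6 at -1.50. In ablated over WT luminal cells 2 were higher and 0 lower, Fxyd6 at 2.50 and Atp1b3 at 1.14. Around Ly6a, 3 of 4 other Ly6 genes were measured. Of these, 2 were higher and 0 lower in WT luminal over basal cells, Ly6d at 7.47 and Ly6e at 1.75. In ablated over WT luminal cells 1 was higher, Ly6c1 at 1.08, and Ly6e stood at -0.71.

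The genes whose cells were most like those of the set were ranked by Pearson correlation with the mean over the 10 genes, taking the lower of both luminal groups (43 and 76 cells), among 5402 eligible genes. The first 8 were Gipc2 (0.85), Fam25c (0.79), Ptn (0.79), Slc12a2 (0.78), Cd164 (0.74), Stc2 (0.74), Tgm2 (0.72) and Wfdc2 (0.72). With Spearman correlation 6 of the 8 stayed among the first 8. Gipc2 and Fam25c had a pattern over groups like Foxa1, with 109 and 66.6 CPM in WT luminal, 108 and 70.7 in ablated luminal, 44.5 and 19.2 in ablated hybrid and at most 5.09 and 0.203 CPM in basal cells. Ptn, a secreted growth factor, was also present in basal cells, at 155 and 307 CPM in the WT and ablated groups.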

How the data were processed

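Smart-seq2 libraries of 374 single-cell wells, 5 libraries of many cells and 5 negative control wells (7930 to 13572 reads) were given as raw counts of reads per gene and well, which the authors deposited without normalization. Per the submitters' processing notes, Seurat, HTSeq 0.6.0, STAR 2.5.2b, cutadapt 1.13 and the build GRCm38 were used, in roles that are not stated. The annotation version and strand setting are not given in the sources used here. Symbols and positions come from GENCODE M21. Of 92 spike-in rows, 11 reads in all, none was used. The labels state neither the hybrid gate nor the cell number of a many-cell library. Groups lie in adjoining lines of 1 plate, so group and plate position cannot be told apart.

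Wells with at least 100000 reads in genes, 1000 genes and at most 20% mitochondrial reads were kept, 319 in all. Of the 55 left out, 47 had too few reads and 8 too large a mitochondrial share. Depth, 118310 reads at the least, limits shares to 5 reads in 100000 and levels to a floor of 3 reads per group, or 0.0313 to 0.0650 CPM. Doublets were neither called nor removed. Level ratios were taken after adding 10 CPM. Python 3.11.15, pandas 2.3.3, scipy 1.17.1, R 4.3.3 and, for TMM factors, edgeR 4.0.16 were used. The ratio step was tested on simulated data of 15979 genes. The 10 genes, the related lists and the naming rules were chosen with earlier results of these data known. All 10 genes are described. From each related list the 2 measured genes with the largest log2 ratio in either direction were named, in WT luminal over WT basal and in ablated over WT luminal cells. To these were added the 8 genes most correlated with the set, detected in at least 10% of both luminal groups, and lineage markers. Areg, Csn3, Elf5, Krt5, Krt14, Krt18 and Acta2 were described further as lineage or list genes. Alternatives changed 1 choice at a time: read and mitochondrial limits, equal weight per cell, TMM or median-of-ratios scaling, 1 CPM added, each gene's top cell left out, the libraries of many cells, negative control reads subtracted, no low-level filter, a 4-fold rule, other detection limits, no thinning and another thinning draw.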

Additional observations from a re-analysis of the deposited data

Results flagged for a closer look

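Reads of Tnfsf11 were present in the ablated hybrid library of many cells, which is outside the single-cell comparisons. It held 10 reads, or 4.04 CPM, where the 5 negative control wells and the other 4 libraries of many cells held 0. The number of cells in that library is not stated. In the 5 negative control wells, 1 well stood apart for Pgr, with 1 read against 0 in the others, and 1 well for Wnt4, again with 1 read against 0. The flag sets the gap to the nearest well against the range of the wells. A lone read among wells at 0 always passes it, so no rate of chance flags applies here. A single read is the smallest count there is.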

How the results depend on the processing

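Of 34 ratios of at least 2-fold, all 34 kept direction and side with other read or mitochondrial limits, equal weight per cell, 1 CPM added or negative control reads subtracted. TMM and median-of-ratios scaling kept 32, losing Pgr in ablated over WT luminal cells (0.86 and 0.82) and in ablated luminal over basal cells (0.88 and 0.85). Both scalings moved the median of all genes, in ablated over WT luminal cells from 0.21 to 0.01 and -0.01. Without each gene's top cell 30 held, and in the libraries of many cells 26. There 3 turned: Prlr in ablated over WT basal cells to 0.06, Pgr in ablated over WT luminal cells to -0.36 and Tph1 in ablated hybrid over basal cells to -0.06. The cause was not tested.

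For counts of the 9 genes, the libraries of many cells gave 1 lower in WT luminal over basal cells, 1 higher and 1 lower in ablated over WT luminal cells, and 8 lower in hybrid over ablated luminal cells. Without each gene's top cell 0 were lower in ablated over WT basal and in hybrid over ablated basal cells. TMM and median-of-ratios scaling each gave 1 higher in ablated over WT luminal cells. A 4-fold rule gave 5 higher in WT luminal over basal cells, 0 higher in ablated over WT basal, 1 higher and 1 lower in ablated over WT luminal and 0 lower in hybrid over ablated basal cells. Shares of all genes were not counted under these settings. The counts thus show only how the calls of the 9 genes moved.

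Shares of cells with at least 3 genes, at a limit of 1 read, were 9.09% in WT basal, 48.8% in WT luminal, 7.04% in ablated basal, 44.7% in ablated hybrid and 68.4% in ablated luminal cells. Without thinning they were 46.5% in WT luminal, 38.8% in ablated hybrid and 59.2% in ablated luminal cells. Without the tenth of wells with most reads they were 26.3, 21.1 and 35.3% in these groups. No paired analysis was possible because each group is 1 sample and no label ties its cells to cells of another group.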
